A study of Mus musculus with 32 samples.

Results

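The 8 genes described here encode the canonical Notch ligands measured in mouse brain arteries and the enzymes that modify ligand signalling. They were chosen by name and function, not by their values, although earlier results of these data were known at the time. They are 8 of the 55357 genes in the deposited count table. The ligand genes were Jag1, Jag2, Dll1, and Dll4, the Fringe genes were Lfng, Mfng, and Rfng, and the ubiquitin ligase gene was Mib1. RNA sequencing was performed on brain arteries of 32 untreated mice, with 1 library per mouse and 8 mice in each of 4 groups. Notch3-/- mice, in which the Notch3 gene is inactivated, were compared with Notch3+/+ mice at 3 months of age. TgNotch3R169C mice were compared with nontransgenic mice, called WT here, at 12 months of age. TgNotch3R169C is a model of CADASIL, an inherited small vessel disease caused by mutations in NOTCH3, and it carries mutant rat Notch3 as a transgene on the X chromosome in addition to both copies of the mouse gene. All lines were on a C57BL/6 background, the controls were littermates, and both sexes were used, but the sex of individual mice is not in the labels.

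Notch receptors are activated by ligands held in the membrane of a neighboring cell. In arteries, endothelial Jagged and Delta-like ligands face the receptors of smooth muscle cells, where Notch3 is the predominant receptor, and smooth muscle cells can also express Jag1. Fringe glycosyltransferases lengthen O-fucose sugars on the extracellular repeats of Notch and so shift the response of the receptor between Delta-like and Jagged ligands, and Mib1 ubiquitinates the ligands, which starts the endocytosis that pulls on the receptor.

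Total counts ranged from 20289487 to 54481934 per library. The genotype labels were checked on Notch3. Levels are given in CPM, which are read counts scaled to the size of each library. Notch3 averaged 83.5 ± 11.7 CPM in Notch3+/+ mice, against 16.2 ± 1.82 CPM in Notch3-/- mice (mean ± SD, n = 8), with no overlap between the groups. It averaged 73.0 ± 8.16 CPM in WT mice, against 181.2 ± 35.0 CPM in TgNotch3R169C mice, again with no overlap, and the counts do not separate rat from mouse Notch3. Markers of the arterial wall were present in all libraries. Summed over 8 smooth muscle genes they ranged from 1087 to 4200 CPM, and summed over 10 endothelial genes from 1472 to 2297 CPM. Brain cells were present too, with 7 astrocyte genes summing to between 2007 and 3371 CPM and 8 neuronal genes to between 193.6 and 983.1 CPM. In 8 libraries, markers of choroid plexus or pituitary gland summed to more than 1000 CPM. These were 1 library of Notch3+/+ mice, 1 of Notch3-/- mice, 4 of WT mice, and 2 of TgNotch3R169C mice.

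Jag1 (ENSMUSG00000027276) and Dll4 (ENSMUSG00000027314) are on chromosome 2, Jag2 (ENSMUSG00000002799) is on chromosome 12, and Dll1 (ENSMUSG00000014773) is on chromosome 17. Lfng (ENSMUSG00000029570) is on chromosome 5, Mfng (ENSMUSG00000018169) on chromosome 15, and Rfng (ENSMUSG00000025158) on chromosome 11. Mib1 has the identifier ENSMUSG00000024294. In GENCODE annotation of the GRCm38 build, exons of Dll1 overlap 867 bases of A930024N18Rik and exons of Dll4 overlap 214 bases of Gm14207, both on the opposite strand. The libraries were stranded, but the strand setting of the counting program is not given in the sources used here, so reads in these overlaps may belong to either gene.

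Promoter sequences of 6 of the 8 genes were taken from RefSeq (GRCm38.p6). Mfng and Mib1 had no entry in the set used, which did not cover every chromosome. The 250 bases upstream of the first listed start are printed for Jag1 and Dll4, which varied together between mice, and for Jag2 and Lfng, which had the lowest unadjusted p-values in Notch3-/- mice. They are written 5′ to 3′ on the strand of the gene, at chr2:137116521-137116770 (minus strand) for Jag1, chr2:119325534-119325783 (plus strand) for Dll4, chr12:112929496-112929745 (minus strand) for Jag2, and chr5:140607091-140607340 (plus strand) for Lfng. Capitals mark the core bound by RBPJ, the DNA-binding partner of Notch (TGGGAA, searched on both strands).
Jag1: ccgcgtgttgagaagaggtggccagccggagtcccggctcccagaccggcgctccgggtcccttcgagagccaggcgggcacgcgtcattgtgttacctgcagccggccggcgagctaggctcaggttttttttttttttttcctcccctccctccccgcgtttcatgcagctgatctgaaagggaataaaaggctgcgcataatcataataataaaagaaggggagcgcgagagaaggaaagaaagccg
Dll4: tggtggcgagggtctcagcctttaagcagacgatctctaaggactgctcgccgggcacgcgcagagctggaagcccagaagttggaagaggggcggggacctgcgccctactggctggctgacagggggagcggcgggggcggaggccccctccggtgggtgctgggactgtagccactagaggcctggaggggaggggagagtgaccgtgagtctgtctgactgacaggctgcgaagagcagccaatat
Jag2: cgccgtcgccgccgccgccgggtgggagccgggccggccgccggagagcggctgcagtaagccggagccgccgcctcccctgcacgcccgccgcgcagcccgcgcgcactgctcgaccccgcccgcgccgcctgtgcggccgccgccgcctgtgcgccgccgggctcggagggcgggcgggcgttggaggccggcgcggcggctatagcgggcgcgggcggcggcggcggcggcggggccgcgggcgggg
Lfng: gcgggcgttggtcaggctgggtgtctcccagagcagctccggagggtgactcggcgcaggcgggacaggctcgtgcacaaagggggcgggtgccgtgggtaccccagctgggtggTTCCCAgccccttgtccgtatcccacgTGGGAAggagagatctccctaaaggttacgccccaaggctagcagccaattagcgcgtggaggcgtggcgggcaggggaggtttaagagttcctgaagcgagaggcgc
Lfng was the only 1 of the 6 genes with this core in the 250 bases. It held 2 copies, on opposite strands, which began 135 and 108 bases before the start. Of the 32851 mouse promoter entries in the set, called all promoters here, 21.6% held at least 1. A gene can have more than 1 entry. The core of ETS factors (CCGGAA, both strands), which include regulators of endothelial genes, was found in 12.0% of all promoters and, among the 6 genes, in that of Rfng, with 2 copies. A TATA box (TATAAA, on the strand of the gene) was found in 7.59% of all promoters and in none of these. The promoter of Jag2 was 87.2% G or C, against a median of 52.4% over all promoters and 57.2% in Jag1, 65.6% in Dll4, and 66.0% in Lfng.

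All 8 genes were expressed in each of the 32 mice. Divided by the length of the merged exons, Jag1 had the highest level of the 8, with 24.2 ± 3.84 CPM per kilobase (mean ± SD, n = 32) and a range from 15.5 to 32.6. Rfng (15.4 ± 0.868), Lfng (15.1 ± 2.196), Mib1 (14.05 ± 1.26), and Jag2 (12.4 ± 1.73 CPM per kilobase) followed. Mfng was at 8.77 ± 1.12, Dll4 at 5.33 ± 0.998, and Dll1 at 2.67 ± 0.929 CPM per kilobase. The ranges of all neighbors in this order overlapped. Within each mouse, however, Jag1 exceeded Rfng, Jag2 exceeded Mfng, Mfng exceeded Dll4, and Dll4 exceeded Dll1 in 32 of 32 mice. The order of Rfng, Lfng, and Mib1 was not fixed, since Rfng exceeded Lfng in 22 mice, Lfng exceeded Mib1 in 22, and Mib1 exceeded Jag2 in 25. With the length of the longest transcript in place of the merged exons, Jag2 was at 16.97 CPM per kilobase and second in the order, and Mfng was at 13.4, so the places of these 2 genes depend on which transcripts are made.

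**Figure D1:**
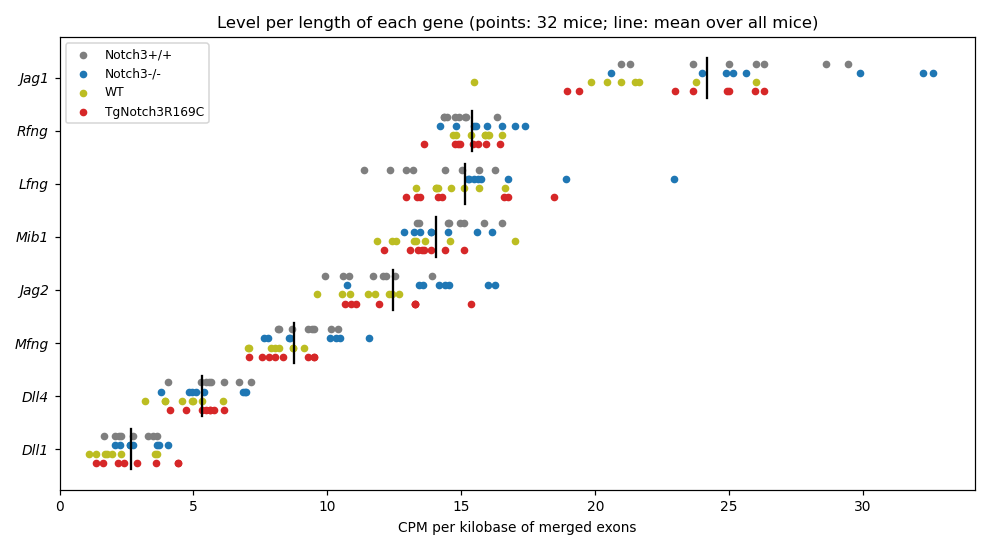
Level of each gene per kilobase of merged exons (x axis, CPM per kilobase) in each of 32 mice, with 1 row per gene and color by group. Vertical lines are means over all mice, from 24.2 for Jag1 to 2.67 for Dll1.

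Among the 4 ligands, Jag1 made up 54.1% ± 2.85 of the summed level per kilobase (mean ± SD, n = 32), Jag2 28.0% ± 2.58, Dll4 11.9% ± 1.48, and Dll1 5.98% ± 1.88. The share of Jag1 lay between 48.9% and 60.2% in all mice. Among the 3 Fringe genes, Rfng made up 39.3% ± 2.85, Lfng 38.4% ± 3.00, and Mfng 22.3% ± 2.02. These shares depend on the length used, by an amount that the SD between mice does not cover. With the length of the longest transcript, Lfng was at 16.5, Rfng at 15.55, and Mfng at 13.4 CPM per kilobase, and Jag1 was at 25.1 and Jag2 at 16.97. The receptors were measured per kilobase of merged exons for context. Notch2 was at 44.7, Notch4 at 10.4, and Notch1 at 8.20 CPM per kilobase on average, and Notch3, which differs between the groups by design, ranged from 1.68 to 27.5.

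The spread between mice was uneven. Dll1 varied most, with a coefficient of variation of 34.8% over all 32 mice, followed by Dll4 with 18.7% and Jag1 with 15.9%. Rfng varied least, with 5.63%, and Mib1 had 8.96%.

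Neither loss of Notch3 nor the R169C transgene was accompanied by a change in any of the 8 genes that passed the test (edgeR's quasi-likelihood test, Benjamini-Hochberg adjustment over all genes tested). All 8 genes passed the filter on low counts in each comparison. In Notch3-/- mice, 0 of 8 genes were called, against 0.649% of all 17714 genes tested. In TgNotch3R169C mice, 0 of 8 were called, against 0.113% of 17731. DESeq2 also called 0 of 8 in both comparisons, against 1.3% and 0.325% of the genes it tested. At an unadjusted p below 0.05, edgeR and DESeq2 each gave 2 genes in Notch3-/- mice, Jag2 and Lfng, both higher, where 7.69% of all genes were past this threshold by edgeR and 3.73% were past it and higher. In TgNotch3R169C mice both gave 0, where 7.27% of all genes were past it. The 95% CIs of the fold changes show what size of change remained possible. In Notch3-/- mice they lay between 0.800 and 1.43 for all 8 genes, and in TgNotch3R169C mice between 0.865 and 1.99, where the upper limit was that of Dll1. The median log2 fold change of the 8 genes was 0.085 in Notch3-/- mice and 0.086 in TgNotch3R169C mice, against -0.0011 and -0.0074 over all genes tested. The fitted value was above 0 for 6 of 8 genes in Notch3-/- mice and for 7 of 8 in TgNotch3R169C mice, against 49.5% and 47% of all genes. With endothelial markers as a covariate it was above 0 for 3 of 8 genes in Notch3-/- mice (Jag2, Lfng, and Rfng), with a median of -0.012, and for 5 of 8 in TgNotch3R169C mice, with a median of 0.051. No gene had separate ranges in mutant and control mice, which 0.339% and 0.124% of all genes had.

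**Figure D2:**
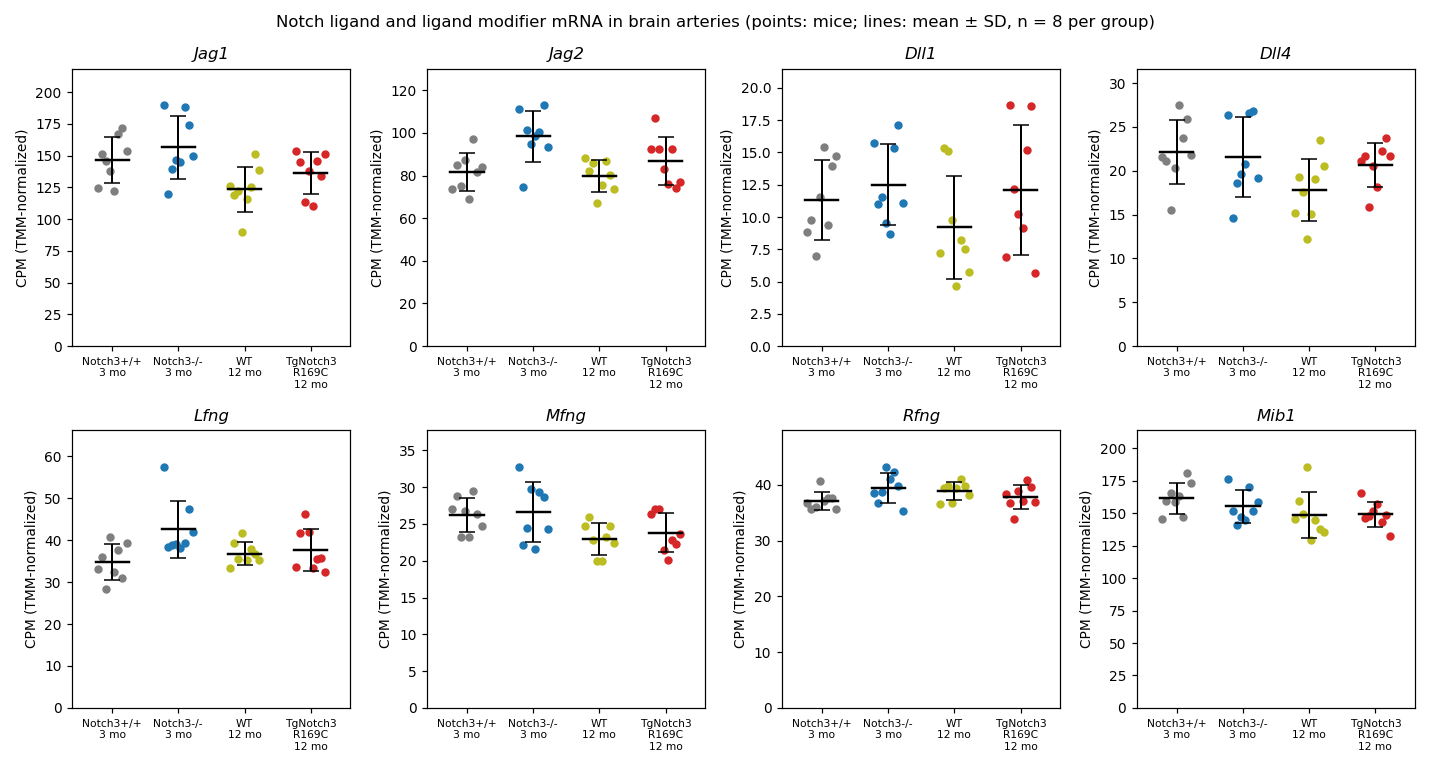
Level of each gene (y axis, CPM after TMM normalization, from 0) in each mouse of the 4 groups, with the mean ± SD (n = 8). The groups overlap for all 8 genes, and 5 of 8 Jag2 points and 3 of 8 Lfng points of Notch3-/- mice lie above the highest Notch3+/+ mouse.

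Jag1, the ligand whose loss in endothelial cells impairs smooth muscle coverage of arteries, did not differ between mutants and controls beyond the spread of the mice. It ranged from 122.2 to 171.5 CPM (median 148.6) in Notch3+/+ mice and from 119.9 to 190.0 CPM (median 147.9) in Notch3-/- mice. The ranges overlapped, with 4 of 8 Notch3-/- mice above the control mean, 3 above the highest control, and 1 below the lowest. The log2 fold change was 0.089 (SE 0.096, adjusted p = 0.933 by edgeR). At 12 months, Jag1 ranged from 90.2 to 151.4 CPM (median 123.6) in WT mice and from 110.3 to 153.3 CPM (median 141.5) in TgNotch3R169C mice. Of the TgNotch3R169C mice, 6 of 8 lay above the WT mean and 1 above the WT range. The log2 fold change was 0.14 (SE 0.091, adjusted p = 0.744 by edgeR), and it was 0.030 without the 6 WT and TgNotch3R169C libraries rich in choroid plexus or pituitary markers and 0.011 with arterial endothelial markers as a covariate.

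Jag2, the second Jagged ligand, had the lowest p-value of the 8 genes in Notch3-/- mice. It ranged from 69.0 to 96.9 CPM (median 82.8) in Notch3+/+ mice and from 74.7 to 113.2 CPM (median 99.4) in Notch3-/- mice. Of the Notch3-/- mice, 7 of 8 lay above the control mean and 5 above the highest control, and the 1 mouse below the mean was replicate 2. The fitted fold change was 1.201 (95% CI 1.07 to 1.35, log2 fold change 0.26, SE 0.079). The unadjusted p was 0.00384 by edgeR and 0.00979 by an exact permutation test of the log2 CPM (two-sided, n = 8 per group), but the adjusted p was 0.214 by edgeR and 0.0999 by DESeq2. Without replicate 2 of the Notch3-/- mice, Jag2 was called, at 0.32 on the log2 scale with an adjusted p of 0.0348 by edgeR, and it was not called when any other library was left out. Jag2 ranged from 66.9 to 88.3 CPM (median 81.1) in WT mice and from 74.1 to 106.9 CPM (median 87.8) in TgNotch3R169C mice, where 4 of 8 mice lay above the highest WT mouse. Here the log2 fold change was 0.12 (SE 0.076, adjusted p = 0.740 by edgeR). It lay between 0.054 with endothelial markers and 0.23 with smooth muscle markers as a covariate over the 11 other settings tried, was past an unadjusted p of 0.05 in 1 of them, and was not called.

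Dll4, a ligand of arterial and sprouting endothelial cells, did not differ between Notch3+/+ mice (15.6 to 27.5 CPM, median 21.7) and Notch3-/- mice (14.6 to 26.8 CPM, median 20.2) beyond the spread of the mice. The log2 fold change was -0.046 (SE 0.13, adjusted p = 0.980 by edgeR), and its sign was not stable, since it was 0.030 without the libraries rich in choroid plexus or pituitary markers and 0.16 with smooth muscle markers as a covariate. In WT mice Dll4 ranged from 12.3 to 23.5 CPM (median 18.3), and in TgNotch3R169C mice from 15.8 to 23.7 CPM (median 21.4). Of the TgNotch3R169C mice, 7 of 8 lay above the WT mean, but only 1 lay above the WT range. The log2 fold change of 0.21 (SE 0.11) had an unadjusted p of 0.0775 and an adjusted p of 0.704 by edgeR. It was 0.078 with arterial endothelial markers as a covariate and 0.11 without the rich libraries.

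Dll1, the least abundant ligand per kilobase, was measured with the least precision. It ranged from 6.94 to 15.4 CPM in Notch3+/+ mice, from 8.69 to 17.1 CPM in Notch3-/- mice, from 4.67 to 15.3 CPM in WT mice, and from 5.69 to 18.7 CPM in TgNotch3R169C mice. The medians were 10.6, 11.3, 7.86, and 11.2 CPM, and the ranges overlapped over most of their length. In TgNotch3R169C mice the fold change of 1.31 had a 95% CI from 0.865 to 1.99 (adjusted p = 0.765 by edgeR), the widest interval of the 8 genes. In Notch3-/- mice the fold change was 1.102 (95% CI 0.850 to 1.43, adjusted p = 0.946 by edgeR). Over the 11 other settings its log2 fold change lay between -0.0044 with endothelial markers as a covariate and 0.24 without the rich libraries in Notch3-/- mice. In TgNotch3R169C mice it lay between 0.23 with neuronal markers and 0.60 without the rich libraries, and Dll1 was not called in any of these fits.

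None of the Fringe genes passed the test. Lfng, the Fringe enzyme best known for segmentation and T cell development, had the second lowest p-value of the 8 genes in Notch3-/- mice, whereas the fitted values of Mfng and Rfng were closer to 0. Lfng ranged from 28.4 to 40.7 CPM (median 34.6) in Notch3+/+ mice and from 38.2 to 57.5 CPM (median 39.3) in Notch3-/- mice. All 8 Notch3-/- mice lay above the control mean of 34.8 CPM and 3 lay above the highest control, while the other 5 lay within the upper part of the control range. The fold change was 1.22 (95% CI 1.06 to 1.40, log2 fold change 0.29, SE 0.094). The unadjusted p was 0.00748 by edgeR and 0.00684 by an exact permutation test of the log2 CPM (two-sided, n = 8 per group), and the adjusted p was 0.320 by edgeR and 0.183 by DESeq2. When 1 library at a time was left out, the log2 fold change lay between 0.22 and 0.33 and Lfng was not called. In WT mice Lfng ranged from 33.3 to 41.7 CPM (median 36.0) and in TgNotch3R169C mice from 32.4 to 46.2 CPM (median 35.6). The log2 fold change was 0.030 (SE 0.073, adjusted p = 0.938 by edgeR).

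Mfng ranged from 23.2 to 29.5 CPM (median 26.6) in Notch3+/+ mice and from 21.7 to 32.8 CPM (median 26.6) in Notch3-/- mice, and the range of the mutants enclosed that of the controls. In WT mice it ranged from 19.99 to 25.9 CPM (median 23.0), and in TgNotch3R169C mice from 20.1 to 27.0 CPM (median 23.2), with nearly equal medians. The log2 fold changes were 0.019 (SE 0.086) in Notch3-/- mice and 0.051 (SE 0.073) in TgNotch3R169C mice, with adjusted p-values of 0.992 and 0.888 by edgeR.

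Rfng, the steadiest of the 8 genes, ranged from 35.7 to 40.6 CPM (median 36.9) in Notch3+/+ mice and from 35.4 to 43.3 CPM (median 39.2) in Notch3-/- mice. Of the Notch3-/- mice, 6 of 8 lay above the control mean. In WT mice it ranged from 36.6 to 41.1 CPM (median 39.5) and in TgNotch3R169C mice from 33.9 to 40.9 CPM (median 37.8), where 6 of 8 mice lay below the WT mean. The log2 fold changes of 0.080 (SE 0.044) in Notch3-/- mice and -0.041 (SE 0.038) in TgNotch3R169C mice had adjusted p-values of 0.740 and 0.816 by edgeR. In Notch3-/- mice Rfng was past an unadjusted p of 0.05 in 3 of the 11 other settings, at 0.10 on the log2 scale without the rich libraries (unadjusted p = 0.0316), 0.079 with a replicate block (unadjusted p = 0.0379), and 0.23 with smooth muscle markers as a covariate (unadjusted p = 0.00111), and was not called. Because of the small spread, the 95% CIs were narrow, from 0.992-fold to 1.13-fold in Notch3-/- mice and from 0.919-fold to 1.03-fold in TgNotch3R169C mice.

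Mib1, which acts on all 4 ligands, ranged from 145.9 to 180.7 CPM (median 161.4) in Notch3+/+ mice and from 140.8 to 176.7 CPM (median 151.6) in Notch3-/- mice. It ranged from 129.6 to 185.9 CPM (median 145.2) in WT mice and from 132.5 to 165.3 CPM (median 148.4) in TgNotch3R169C mice, entirely within the WT range. The log2 fold changes were -0.065 (SE 0.056) and 0.0061 (SE 0.064), with adjusted p-values of 0.889 and 0.988 by edgeR. The 95% CIs were 0.880-fold to 1.04-fold and 0.914-fold to 1.103-fold.

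**Figure D3:**
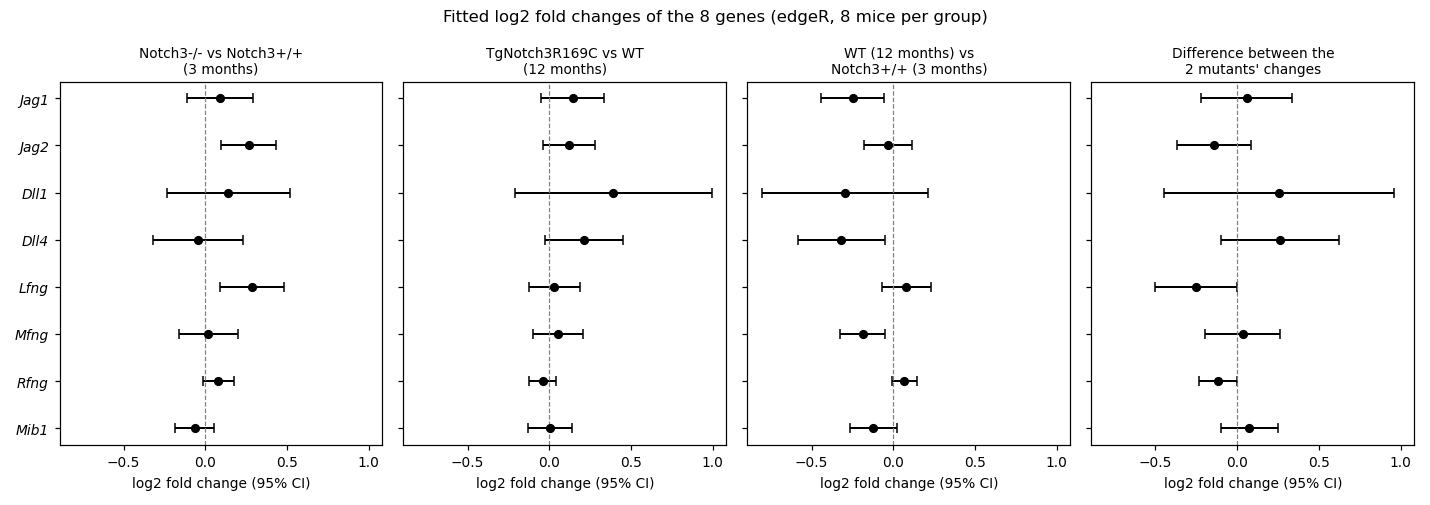
Fitted log2 fold changes (x axis) with 95% CIs for each gene in the 4 comparisons (edgeR, n = 8 mice per group). Intervals of Jag2 and Lfng lie above 0 in Notch3-/- mice before adjustment for the number of genes tested, and Dll1 has the widest interval in each panel.

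Whether the mutants differed from each other was tested as the change in TgNotch3R169C mice minus the change in Notch3-/- mice, each against its own controls. For this difference 0 of 8 genes were called by edgeR and by DESeq2, against 0.35% of 18555 genes by edgeR and 0.722% of the genes tested by DESeq2. At an unadjusted p below 0.05, edgeR and DESeq2 each gave 2 genes, Lfng and Rfng, both with the lower value in TgNotch3R169C mice, where 8.62% of all genes were past this threshold and 3.78% were past it and lower. The difference was -0.25 for Lfng (SE 0.12, unadjusted p = 0.0468, adjusted p = 0.570 by edgeR) and -0.12 for Rfng (SE 0.057, unadjusted p = 0.0483, adjusted p = 0.577 by edgeR). For Jag2 it was -0.14 (95% CI -0.37 to 0.085). The median difference of the 8 genes was 0.046, against 0.00061 over all genes, and 5 of 8 differences were above 0, against 50.2% of all genes. With smooth muscle markers as a covariate the median was -0.070 and 3 of 8 were above 0.

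In WT mice aged 12 months, the fitted values of Jag1, Dll4, Mfng, Dll1, Mib1, and Jag2 lay below those of Notch3+/+ mice aged 3 months, but none passed the test, and the sign for Jag2 was not stable. These groups differ in age, line, and cohort at once, which cannot be told apart. None of the 8 genes was called by edgeR or DESeq2, although 7.92% of 17643 genes were called by edgeR and 10.8% of the genes tested by DESeq2. At an unadjusted p below 0.05, edgeR and DESeq2 each gave 3 genes, all lower in WT mice, where 24.2% of all genes were past this threshold and 11.5% were past it and lower. The log2 fold change of Mfng was -0.19 (SE 0.065), with an adjusted p of 0.0834 by edgeR and 0.0559 by DESeq2, and 8 of 8 WT mice lay below the Notch3+/+ mean. Jag1 was at -0.25 (SE 0.092, adjusted p = 0.105 by edgeR), with 7 of 8 WT mice below the mean and 4 below the lowest Notch3+/+ mouse. Dll4 was at -0.32 (SE 0.13, adjusted p = 0.128 by edgeR), also with 7 of 8 WT mice below the mean. Jag2 was at -0.030 (SE 0.069), Dll1 at -0.29 (SE 0.24), Lfng at 0.081 (SE 0.070), Rfng at 0.067 (SE 0.036), and Mib1 at -0.12 (SE 0.068), with adjusted p-values between 0.282 and 0.835 by edgeR. The value of Jag2 was above 0 in 4 of the 11 other settings, up to 0.19 with smooth muscle markers as a covariate, and in 2 of 16 fits with 1 library left out. Mib1 was past an unadjusted p of 0.05 in 6 of the 11, with -0.18 without the rich libraries (unadjusted p = 0.0159) and -0.37 with smooth muscle markers (unadjusted p = 0.0110), where Dll1 was at -0.77 (unadjusted p = 0.157). None of these was called. The summed smooth muscle markers had separate ranges in the 2 control groups, so that covariate and the group cannot be told apart. Without covariates, the median of the 8 genes was -0.15, against 0.0026 over all genes, and 2 of 8 fitted values were above 0, against 50.6% of all genes. The ranges of the groups overlapped for all 8 genes, whereas they were separate for 1.29% of all genes.

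Markers of the cells that make up the artery moved in the same comparisons. Fewer cells of a type and less RNA per cell cannot be told apart in these data. In WT against Notch3+/+ mice, 8 of 8 smooth muscle genes fell, with a median log2 fold change of -0.78, and their summed level ranged from 1351 to 2027 CPM in WT mice and from 2421 to 4200 CPM in Notch3+/+ mice. Of 8 arterial endothelial genes, Gja4 and Gja5, which encode connexins, fell by 0.53 and 1.16 on the log2 scale, and the median of the list was -0.22. Unc5b, on the same list, was at 0.24 (unadjusted p = 0.0311 by edgeR) and was not called. Its summed level ranged from 431 to 602.7 CPM in WT mice and from 495.3 to 684.5 CPM in Notch3+/+ mice. Of 10 endothelial genes, Pecam1 fell by 0.52 on the log2 scale and the median was -0.17, whereas Emcn was at 0.30 (unadjusted p = 0.0342 by edgeR, not called). Among 7 choroid plexus genes, 5 rose, with summed levels from 262.3 to 25690 CPM in WT mice and from 313.5 to 650 CPM in Notch3+/+ mice. Higher calls by edgeR were also made for 3 of 7 oligodendrocyte genes (median 0.655) and 2 of 7 pericyte genes (median 0.073). Lower calls were made for 2 of 8 fibroblast genes (median -0.134). The fitted values of Jag1, Dll4, and Mfng were closer to 0 with arterial endothelial or choroid plexus markers in the fit. With arterial endothelial markers as a covariate, the log2 fold change between the control groups was -0.048 for Jag1, 0.057 for Dll4, and -0.083 for Mfng. With choroid plexus markers it was -0.064, -0.19, and -0.12, and without the rich libraries it was -0.16, -0.16, and -0.17.

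In Notch3-/- mice, 6 of 8 smooth muscle genes fell, among them Myh11 by 1.04 and Acta2 by 0.63 on the log2 scale, and the list had a median of -0.63. Its summed level ranged from 1658 to 2496 CPM, against 2421 to 4200 CPM in Notch3+/+ mice. Des, which encodes desmin and is on the same list, was at 0.28 (unadjusted p = 0.00655) and was not called. Of 7 pericyte genes, Kcnj8, a potassium channel gene, rose by 0.46 on the log2 scale, with a median of 0.044 for the list, and of 6 genes of oligodendrocyte precursors, Cspg4, which pericytes also express, fell by 0.49. Of 7 oligodendrocyte genes, 0 were called by edgeR, but all 7 were above 0, with a median of 0.44 and 1 past an unadjusted p of 0.05, and their summed level ranged from 1111 to 2205 CPM, against 703.5 to 1838 CPM in Notch3+/+ mice. All 5 red blood cell genes were above 0 too, with a median of 0.419 and 0 called. The part of these cells in the values of the 8 genes was not tested. All 7 choroid plexus genes were above 0 (median 2.83), with 0 called and 5 past an unadjusted p of 0.05. Their summed level ranged from 224.9 to 24970 CPM, with 1 library over 1000 CPM, against 313.5 to 650 CPM in Notch3+/+ mice. Of 6 pituitary genes, 4 were tested, with 0 above 0 and 0 called. The 10 endothelial and 8 arterial endothelial genes had 0 called by edgeR and medians of 0.071 and 0.066, with 0 and 1 past an unadjusted p of 0.05. With endothelial markers as a covariate, the log2 fold change was 0.19 for Jag2 and 0.21 for Lfng, and with smooth muscle markers it was 0.43 and 0.48. Smooth muscle markers themselves fell in Notch3-/- mice, so a fit with them as a covariate also removes part of the group difference. Neither gene was called in these fits. In TgNotch3R169C mice, 0 of 8 smooth muscle genes were called by edgeR (median -0.23, 4 past an unadjusted p of 0.05), and of the 8 arterial endothelial genes Gja5 rose by 0.60 on the log2 scale. The arterial endothelial list had a median of 0.090, with 5 of 8 genes above 0. Of 10 endothelial genes, 0 were called by edgeR, but 9 were above 0, with a median of 0.1. All 8 neuronal and all 7 astrocyte genes were above 0, with medians of 0.345 and 0.17 and 0 called. Of 7 oligodendrocyte genes, 1 was above 0 (median -0.075). Their part in the values of the 8 genes was not tested either. Of 7 choroid plexus genes, 0 were above 0 (median -1.07), with 0 called. The summed arterial endothelial level ranged from 442 to 573.3 CPM in these mice. With smooth muscle markers as a covariate, the log2 fold change in these mice was 0.25 for both Jag1 and Dll4, and neither was called.

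The other genes of the pathway gave the setting. Of 15 genes that handle or glycosylate ligands and receptors, 0 were called in either mutant by edgeR, with 2 past an unadjusted p of 0.05 in Notch3-/- mice and 1 in TgNotch3R169C mice. Mib2, the relative of Mib1, had log2 fold changes of 0.084 and -0.042. In WT against Notch3+/+ mice, the glucosyltransferase genes Poglut2 and Poglut3 fell by 0.25 and 0.20 on the log2 scale (adjusted p = 0.00274 and 0.0154 by edgeR). Of 10 noncanonical ligands, 9 passed the filter and 0 were called in either mutant by edgeR, with 0 and 1 past an unadjusted p of 0.05. Between the control groups Ccn3, a secreted matricellular protein, fell by 0.47 and Cntn1, a neuronal adhesion protein, rose by 1.06 on the log2 scale. Ccn3 was the most abundant of these 54 pathway genes, with 315 CPM per kilobase.

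Of 20 receptor and core signalling genes, Notch3 alone was called in either mutant. It fell by 2.37 on the log2 scale in Notch3-/- mice, and its log2 fold change in TgNotch3R169C mice was 1.31. Between the control groups 0 of the 20 were called by edgeR, with 5 past an unadjusted p of 0.05. The values of Notch1 were 0.071 (SE 0.085) and 0.14 (SE 0.063), those of Notch2 -0.035 (SE 0.045) and -0.11 (SE 0.046), and those of Notch4 0.082 (SE 0.14) and 0.26 (SE 0.062) in Notch3-/- and TgNotch3R169C mice. In TgNotch3R169C mice all of these were past an unadjusted p of 0.05 by edgeR (0.0406, 0.0272, and 0.000628), where 7.27% of all genes were. Their adjusted p-values were 0.679, 0.669, and 0.201 by edgeR. In Notch3-/- mice none of them was past an unadjusted p of 0.05. Of 9 target genes of the pathway, 0 were called in any comparison by edgeR, with 1 past an unadjusted p of 0.05 in Notch3-/- mice and 2 in TgNotch3R169C mice. The latter were Hey1 at 0.20 (SE 0.080, unadjusted p = 0.0205, adjusted p = 0.638 by edgeR) and Heyl at 0.31 (SE 0.14, unadjusted p = 0.0404, adjusted p = 0.679 by edgeR), with the higher values in these mice. Hey2, a target gene in vascular cells, was at -0.30 (SE 0.13, unadjusted p = 0.0288, adjusted p = 0.561 by edgeR) in Notch3-/- mice. In TgNotch3R169C mice it was at 0.19 (SE 0.18, unadjusted p = 0.309 by edgeR). For the difference between the mutants, Heyl was at 0.43 and Hey2 at 0.50 (unadjusted p = 0.0124 and 0.0394, adjusted p = 0.406 and 0.555 by edgeR).

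Mice of the same group differed from each other in the level of the 8 genes, and several genes varied together. Each gene was expressed as the deviation of a mouse from its group mean on the log2 scale and compared with the mean deviation of marker lists over 32 mice. The markers of 12 cell types were compared with 8 genes, giving 96 pairs, and p-values are from 100000 permutations (two-sided) with Benjamini-Hochberg adjustment over the 96. Choroid plexus and pituitary markers were left out because the libraries fall into separate clusters for them. All genes of a library share its depth and its mixture of cells.

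Dll4 and Jag1 followed the arterial endothelial markers. For Dll4, Pearson's r was 0.827 (permutation p = 1e-05, adjusted p = 0.00096) and Spearman's rho 0.749 (permutation p = 1e-05, adjusted p = 0.00048), where 1e-05 is the smallest p these permutations can give. Without the 2 mice farthest from the median of the markers, r was 0.755, without the rich libraries it was 0.841, and within the groups it lay between 0.494 and 0.917. For Jag1, r was 0.756 (permutation p = 2e-05, adjusted p = 0.00096) and rho 0.780 (permutation p = 1e-05, adjusted p = 0.00048). Without the 2 farthest mice r was 0.811, without the rich libraries 0.708, and within the groups it lay between 0.286 and 0.972. Neither gene is on the list, which holds Gja4, Gja5, Sox17, Bmx, Efnb2, Nrp1, Unc5b, and Gkn3.

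Jag2 and Mfng followed the general endothelial markers, but not these alone. For Mfng, r was 0.669 (permutation p = 4e-05, adjusted p = 0.00128) and rho 0.676 (permutation p = 9e-05, adjusted p = 0.00288), and r was 0.612 without the 2 farthest mice. For Jag2, r was 0.642 (permutation p = 0.00017, adjusted p = 0.00408) and rho 0.577 (permutation p = 0.00106, adjusted p = 0.0254), and r was 0.640 without the 2 farthest mice. Jag1 also followed this list, with r of 0.563 (permutation p = 0.00107, adjusted p = 0.0205), rho of 0.544 (permutation p = 0.00238, adjusted p = 0.0381), and r of 0.713 without the 2 farthest mice, but within the groups its r ranged from 0.051 to 0.980. Mfng was further related to microglia and macrophage markers, with r of 0.548 (permutation p = 0.0024, adjusted p = 0.0256), rho of 0.565 (permutation p = 0.00166, adjusted p = 0.0319), and r of 0.483 without the 2 farthest mice, but r was 0.336 without the rich libraries. None of the other pairs passed the threshold in both r and rho. With smooth muscle markers, r was between -0.227 for Mib1 and 0.509 for Mfng. Dll1, Lfng, Rfng, and Mib1 passed in both measures with 0 of the 12 lists. With endothelial markers, r of Mib1 was -0.05 over all mice, but within the groups it ranged from -0.648 to 0.696.

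**Figure D4:**
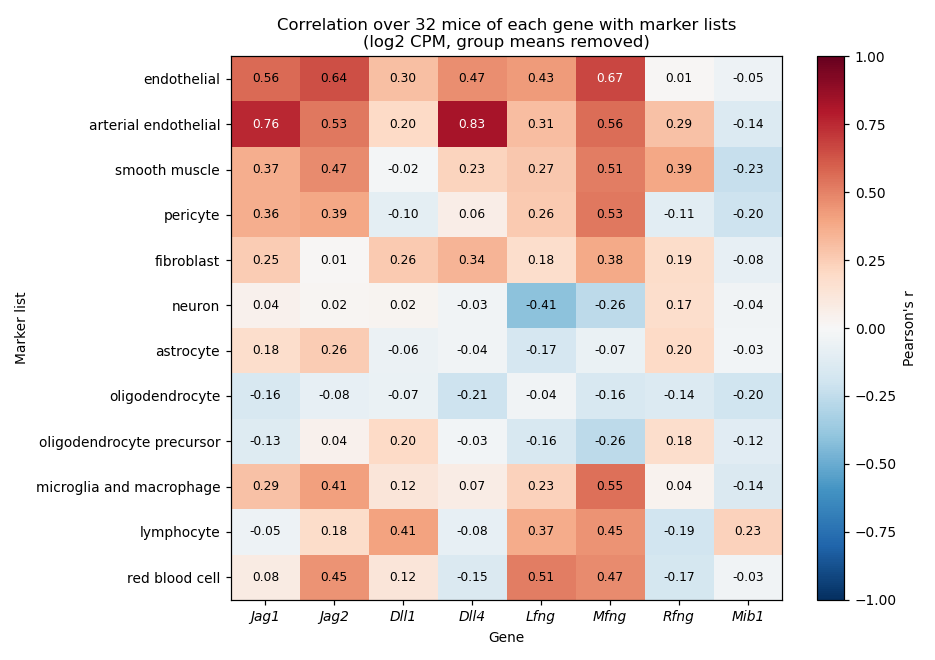
Pearson's r over 32 mice between each gene (columns) and the mean of each marker list (rows), both as deviations from the group mean of log2 CPM. The highest values are 0.83 for Dll4 and 0.76 for Jag1 with arterial endothelial markers. Values of Rfng lie between -0.19 (lymphocyte) and 0.39 (smooth muscle), and those of Mib1 between -0.23 (smooth muscle) and 0.23 (lymphocyte).

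**Figure D5:**
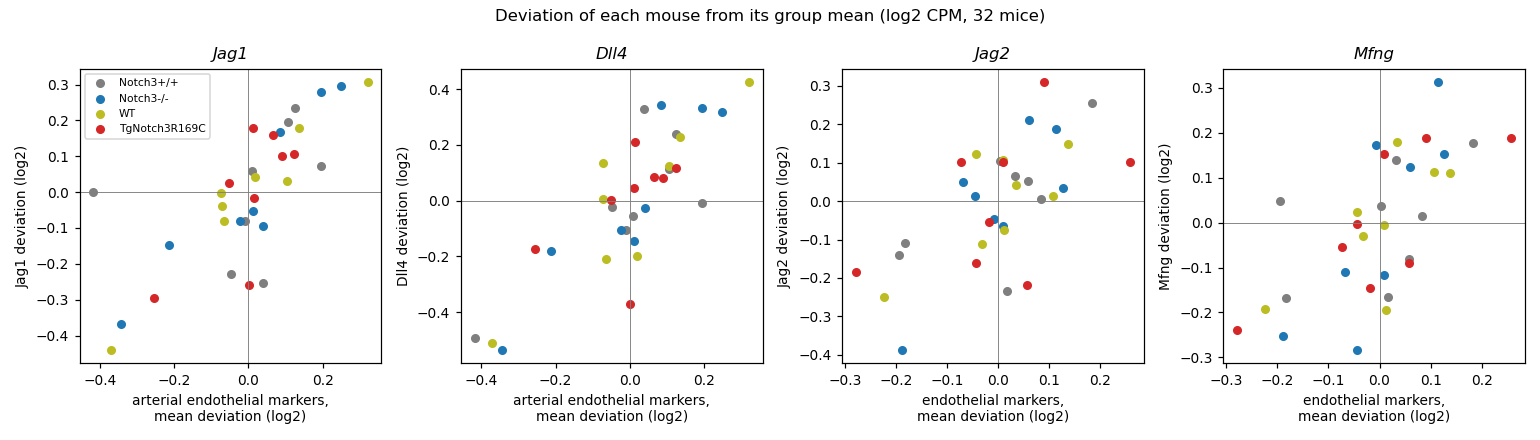
Deviation of each mouse from its group mean (log2 CPM) for Jag1 and Dll4 against arterial endothelial markers and for Jag2 and Mfng against endothelial markers, with color by group. Mice of all 4 groups lie along the rising trend, with the 3 lowest Dll4 values at the lowest marker values.

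Between the 8 genes themselves, 28 pairs were compared in the same way, with adjustment over the 28. Jag1 and Dll4 were related, with r of 0.716 (permutation p = 5e-05, adjusted p = 0.00084), rho of 0.699 (permutation p = 7e-05, adjusted p = 0.00098), and r of 0.597 without the 2 farthest mice. Jag2 and Mfng had r of 0.692 (permutation p = 6e-05, adjusted p = 0.00084), rho of 0.682 (permutation p = 7e-05, adjusted p = 0.00098), and r of 0.635 without the 2 farthest mice. Jag1 was also related to Jag2, with r of 0.586 (permutation p = 0.00089, adjusted p = 0.00831) and rho of 0.486 (permutation p = 0.00753, adjusted p = 0.0422), and to Mfng, with r of 0.571 (permutation p = 0.00187, adjusted p = 0.0131) and rho of 0.525 (permutation p = 0.00482, adjusted p = 0.0337). Without the 2 farthest mice r was 0.429 and 0.479. Dll1, Lfng, Rfng, and Mib1 were in none of the pairs that passed in both measures, and Jag1 and Dll1 had r of 0.031. Dll1 and Lfng passed in rho alone, with r of 0.438 (adjusted permutation p = 0.0546) and rho of 0.507 (adjusted permutation p = 0.0337).

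The genes whose deviations were most like those of each member were taken from 18547 genes by Pearson's r over the 32 mice, as a description with no test. For Jag1 they were Nuak1 (0.861), Bmx (0.793), an arterial endothelial kinase, and Ptprb (0.786), an endothelial phosphatase. For Jag2 they were Sox17 (0.847), a transcription factor of arterial endothelium, Card10 (0.842), and Nos3 (0.838), the endothelial nitric oxide synthase. For Dll4 they were Syt15 (0.828), Fbln5 (0.791), a protein of elastic fibers, and Zcchc14 (0.773), and for Dll1 they were Nod2 (0.826), Lrrfip1 (0.781), and Bcl6b (0.774). For Lfng they were Lims2 (0.793), Pxn (0.776), which encodes the focal adhesion protein paxillin, and Slc2a1 (0.728), the glucose transporter of brain endothelium. For Mfng they were Dram1 (0.831), Synpo (0.823), and Ccm2l (0.798). For Rfng they were Gba2 (0.708), Cdk9 (0.700), and Tom1l2 (0.694), the lowest values of the 8 genes, and for Mib1 they were Mosmo (0.888) and the importin genes Ipo7 (0.884) and Kpna4 (0.883), the highest.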

How the data were processed

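Total RNA of dissected brain arteries was made into stranded, poly(A)-selected libraries. The values the authors deposited are raw counts of reads, given as whole numbers for each Ensembl gene. The submitters' processing notes name bcl2fastq 2.20.0.422, cutadapt 1.10, Bowtie2 2.2.8, STAR 2.5.3a, HTSeq 0.6.1p1, and the mm39 build, without giving a role or order. The annotation release and the strand setting are not given in the sources used here. Of 55357 genes, 16744 had no counts, and 52081 were given a symbol from their identifiers.

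The counts were tested with edgeR 4.0.16 in R 4.3.3 (filterByExpr, TMM normalization, quasi-likelihood test), in a fit of the 2 groups compared, or of all 4 for the difference between mutants. A gene was called at an adjusted p below 0.05 (Benjamini-Hochberg, over all genes tested). DESeq2 1.42.0, which the study used, was an alternative. Levels are CPM with TMM factors over 32 libraries, and log2 CPM used a prior count of 2. Lengths, chromosomes, and overlaps come from GENCODE vM21 of GRCm38, another build than that of the counts. Exact permutation tests covered 12870 divisions of 8 against 8 mice. Correlations used 100000 permutations (seed 20240222). Fits were tested on simulated data. No 2 libraries were duplicates.

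Genes were named by this rule: the 8 genes, the Notch receptors, called genes of the pathway lists, markers whose list moves with a member, and the 3 genes most like each member. Mib2, Hey1, Hey2, Heyl, Des, Kcnj8, and Cspg4 were named after their values were seen. The members, gene lists, and tests were chosen with earlier results of these data known. Alternatives were RLE normalization, no filter, DESeq2, all groups in one fit, a replicate block, marker covariates, and leaving out each library. After the data were seen, an arterial endothelial covariate and leaving out the libraries rich in choroid plexus or pituitary markers (over 1000 CPM) were added.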

Additional observations from a re-analysis of the deposited data

Results flagged for a closer look

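Rfng in Notch3+/+ mice held a single high value. Replicate 4 was at 40.6 CPM and the next highest mouse at 37.8 CPM, a gap of 0.587 of the range of the group, above the 95% critical value of Dixon's test for 8 mice. It was the only 1 of 32 groups (8 genes in 4 groups) with such a gap, where chance would give 1.6.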

How the results depend on the processing

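None of the 8 genes was called in any comparison with RLE normalization, without the filter, with DESeq2, with a replicate block, with any marker covariate, or without the 8 libraries rich in choroid plexus or pituitary markers. Of 344 fold changes of the 8 genes under these 11 settings, 321 kept their direction and side of the threshold and 23 reversed. Leaving out 1 library gave 640 more, of which 624 kept both, 15 reversed, and 1 was called (Jag2, described above), so the members called in Notch3-/- mice ranged from 0 to 1. The reversed values belonged to fold changes that did not pass the test, and the cause was not tested. Smooth muscle markers were lower in Notch3-/- mice and in WT mice than in Notch3+/+ mice. Fits with them as a covariate therefore also remove part of those group differences.

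On the log2 scale, the reversed values in Notch3-/- mice were -0.019 for Jag1, -0.0044 for Dll1, and -0.055 for Mfng with endothelial markers as a covariate, 0.16 for Dll4 with smooth muscle markers, -4.6e-05 for Mfng with arterial endothelial markers, and 0.030 for Dll4 without the rich libraries. In TgNotch3R169C mice they were -0.0091 for Lfng and -0.033 for Mfng with endothelial markers, -0.071 for Mib1 with smooth muscle markers, -0.0041 for Mib1 with neuronal markers, and -0.013 for Mfng with arterial endothelial markers. Between the control groups Jag2 reversed to 0.11, 0.19, 0.033, and 0.073 with endothelial, smooth muscle, choroid plexus, and arterial endothelial markers, Dll4 to 0.057 with arterial endothelial markers, and Lfng to -0.00065 without the rich libraries. The difference between the mutants reversed for Jag1 to -0.047 and for Mfng to -0.092 with smooth muscle markers, to -0.011 and -0.017 with arterial endothelial markers, to -0.039 for Jag1 without the rich libraries, and to -0.00051 for Mfng with choroid plexus markers. With 1 library left out, values of both signs were found in Notch3-/- mice for Dll4 (-0.11 to 0.026) and Mfng (-0.023 to 0.062), in TgNotch3R169C mice for Lfng (-0.021 to 0.058) and Mib1 (-0.019 to 0.060), between the control groups for Jag2 (-0.064 to 0.010), and in the difference between the mutants for Mfng (-0.0045 to 0.080).

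The number of genes called over the whole table, 115 in Notch3-/- mice, was 280 with DESeq2 (116 higher and 164 lower, against 35 and 80), 174 in a fit of all 4 groups, 16 with smooth muscle markers, and 78 to 141 with 1 library left out. In TgNotch3R169C mice it was 20 and became 74 with DESeq2 (58 higher and 16 lower, against 18 and 2), 8 with neuronal or arterial endothelial markers, and 2 without the rich libraries. With 1 library left out it was 11 to 26, and it was 11 without WT replicate 3 or 4, 12 without TgNotch3R169C replicate 1, and 13 without WT replicate 7. Between the control groups it was 1398 and became 2357 with DESeq2, 194 with endothelial, 0 with smooth muscle, 294 with choroid plexus, and 156 with arterial endothelial markers, 236 without the rich libraries, and 895 to 1621 with 1 library left out, the lowest without Notch3+/+ replicate 7. For the difference between the mutants it was 65 and became 152 with DESeq2, 28 without the rich libraries, and 53 to 94 with 1 library left out.

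Replicate numbers did not pair the mice. Deviations of same-numbered mice correlated over 0.1 in 4, 4, and 3 of 8 pairs, and 2, 1, and 1 of the samples correlated best with their own number. With the replicate block, 97 genes were called in Notch3-/- mice, 6 in TgNotch3R169C mice, 715 between the control groups, and 63 for the difference between the mutants, and no call among the 8 genes changed. The length used moved the level per kilobase by more than the spread between mice for Jag2, from 12.4 to 16.97, and for Mfng, from 8.77 to 13.4. Dll1 had the fewest counts of the 8 genes, with 119 to 782 per library.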
